A study of Danio rerio with 2 samples.

Results

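The genes described here are the 3 zebrafish transmembrane channel-like genes *TMC1* (ENSDARG00000056386, upper case in the deposited tables), *tmc2a* (ENSDARG00000033104) and *tmc2b* (ENSDARG00000030311). They are 3 of 32059 features, selected by gene name with no limit on their values, and all 3 had UMIs (unique molecular identifiers, 1 per captured RNA molecule) in both libraries. Each library held cells sorted by flow cytometry for membrane-bound GFP from 4 dpf larvae carrying *Tg(Brn3c:mGFP)*, a transgene in which a *Brn3c* promoter marks hair cells (HCs). The tested larvae carried a CRISPR/Cas9 frameshift deletion in *hsd17b7*, a gene of cholesterol synthesis, and the controls were wild type. There was 1 library for each genotype, made with the 10x 3′ kit from cells dissociated with trypsin, and the sources used here do not give how many larvae went into either. Differences between the libraries therefore have no replicate check and carry counting intervals but no p-values.

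Hair cells turn the deflection of a hair bundle into a current through mechanotransduction channels at the tips of the stereocilia. TMC1 and TMC2 form the pore of these channels, and zebrafish have 1 *tmc1* gene and the duplicates *tmc2a* and *tmc2b*. The TMC proteins work with TMIE, LHFPL5 and the calcium-binding proteins CIB2 and CIB3, and the channel is pulled by a tip link of PCDH15 and CDH23. TOMT is needed for TMC proteins to reach the bundle. In the RefSeq annotation of GRCz12tu, a newer assembly than the GRCz11 of the processing notes, *tmc1* and *tmc2b* are direct neighbours on chromosome 5, and *tmc2a* lies elsewhere on that chromosome.

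The mutant library held 81920586 UMIs in 10119 barcodes, and the control library 180590990 UMIs in 19270. Barcodes were kept where 500 or more genes were counted and mitochondrial transcripts made up 20% of UMIs or less, which left 8322 in the mutant and 17385 in the control library. Lateral line hair cells (LLHCs, 70 mutant and 105 control) had at least 2 UMIs of *myo6b*, the hair cell myosin, and more *lhfpl5b* than *lhfpl5a*. Inner ear hair cells (IEHCs, 636 mutant and 713 control) had at least 3 *myo6b* and 2 *lhfpl5a* UMIs and no *lhfpl5b*. The other 7616 mutant and 16567 control barcodes met neither gate, so most kept barcodes of the sorted cells lay outside the hair cell gates. IEHCs were split in turn into an *atoh1a* subset (at least 2 UMIs of this early hair cell transcription factor; 364 mutant and 352 control cells), an *s100s*-high subset (116 and 185), a *cabp5b*-high subset (120 and 111) and the remaining cells (36 and 65). *s100s*-high cells had at least 10 *s100s* UMIs and more *s100s* than *cabp5b*. *cabp5b*-high cells had at least 3 *cabp5b* UMIs and more *cabp5b* than *s100s*. All 9 hair cell markers listed were detected in both classes and both libraries, with summed levels of 4385 CPM (UMIs of a gene scaled to all UMIs of the class) in mutant and 3057 CPM in control LLHCs, and 6169 and 4201 CPM in mutant and control IEHCs. Detection of all 9 does not by itself mark hair cells. Barcodes with at least 2 *elavl3* UMIs and no *myo6b* also held all 9, at 544 CPM in the mutant and 376 CPM in the control library. Lateral line hair cell markers summed to 62961 CPM in mutant and 27294 CPM in control LLHCs, against 11856 and 6569 CPM in IEHCs. By subset, this list reached 24203 CPM in *s100s*-high and 24657 CPM in remaining IEHCs of the mutant library. In the control library its highest subset value was 11685.5 CPM, in *s100s*-high cells, and remaining IEHCs stood at 5267 CPM. Inner ear hair cell markers summed to 17838 and 7510 CPM in mutant and control IEHCs, against 48.4 and 32.5 CPM in LLHCs. Both of these lists include a gate gene. The targeted gene does not check the labels, because *hsd17b7* stood at 301 CPM in IEHCs of the library labelled mutant and at 182 CPM in those of the library labelled control. Globin UMIs were 0.000459% of mutant and 2.25% of control IEHC UMIs, and 49 barcode sequences occurred in both libraries, of which 1 was in a hair cell gate in both. Cell Ranger 9.0.1 was used for the mutant and 7.1.0 for the control library, so version and genotype cannot be told apart.

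The first comparison asked which TMC genes each kind of hair cell carried. LLHCs had mostly *tmc2b*, with *tmc2a* low and *TMC1* near background, whereas IEHCs had all 3 genes. *TMC1* had 3 UMIs in mutant LLHCs (2.96 CPM, 95% Poisson interval 0.61 to 8.65) and 4 in control LLHCs (2.32 CPM, 0.632 to 5.94), against 3260 in mutant IEHCs (348 CPM, 336 to 360) and 1405 in control IEHCs (113 CPM, 107 to 119). *tmc2a* had 34 UMIs in mutant LLHCs (33.6 CPM, 23.2 to 46.9) and 32 in control LLHCs (18.6 CPM, 12.7 to 26.2), against 5807 in mutant IEHCs (620 CPM, 604 to 636) and 4786 in control IEHCs (386 CPM, 375 to 397). For both genes the intervals of the LLHCs and the IEHCs lay far apart in each library. *tmc2b* had 194 UMIs in mutant LLHCs (192 CPM, 166 to 220) and 137 in control LLHCs (79.5 CPM, 66.7 to 94.0), against 1748 in mutant IEHCs (186 CPM, 178 to 195) and 1248 in control IEHCs (101 CPM, 95.1 to 106). Its LLHC and IEHC intervals overlapped in the mutant library and did not in the control library, where the LLHCs were lower. All intervals given here cover counting error only.

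LLHC profiles were tested against IEHC profiles with the quasi-likelihood test of edgeR, with the library as a term and Benjamini-Hochberg adjustment over 16232 genes. *TMC1* was lower in LLHCs (log2 difference -6.18, SE 0.34, adjusted p 7.0e-07), and so was *tmc2a* (-4.22, SE 0.23, adjusted p 7.0e-07). *tmc2b* did not differ beyond the error (-0.075, SE 0.20, adjusted p 0.87), with values of 0.038 within the mutant and -0.34 within the control library. At the same threshold 14.6% of all genes were called, 7.27% higher and 7.37% lower in LLHCs. The p-values measure only how far the class difference varied between these 2 libraries, with 1 residual degree of freedom and variance estimates shared over genes. Each SE was derived from the test, as the size of the log2 difference over the square root of its F statistic. It can therefore fall below the counting error where few UMIs were counted, as for *TMC1* in LLHCs (3 and 4 UMIs). The 2 libraries also differ in genotype. Without the library term the differences of *TMC1* (adjusted p 0.0847) and *tmc2a* (adjusted p 0.0999) were no longer called. Markers of inner ear supporting cells summed to 331 CPM in mutant and 2552 CPM in control LLHCs, and their part in these values was not tested.

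**Figure D1:**
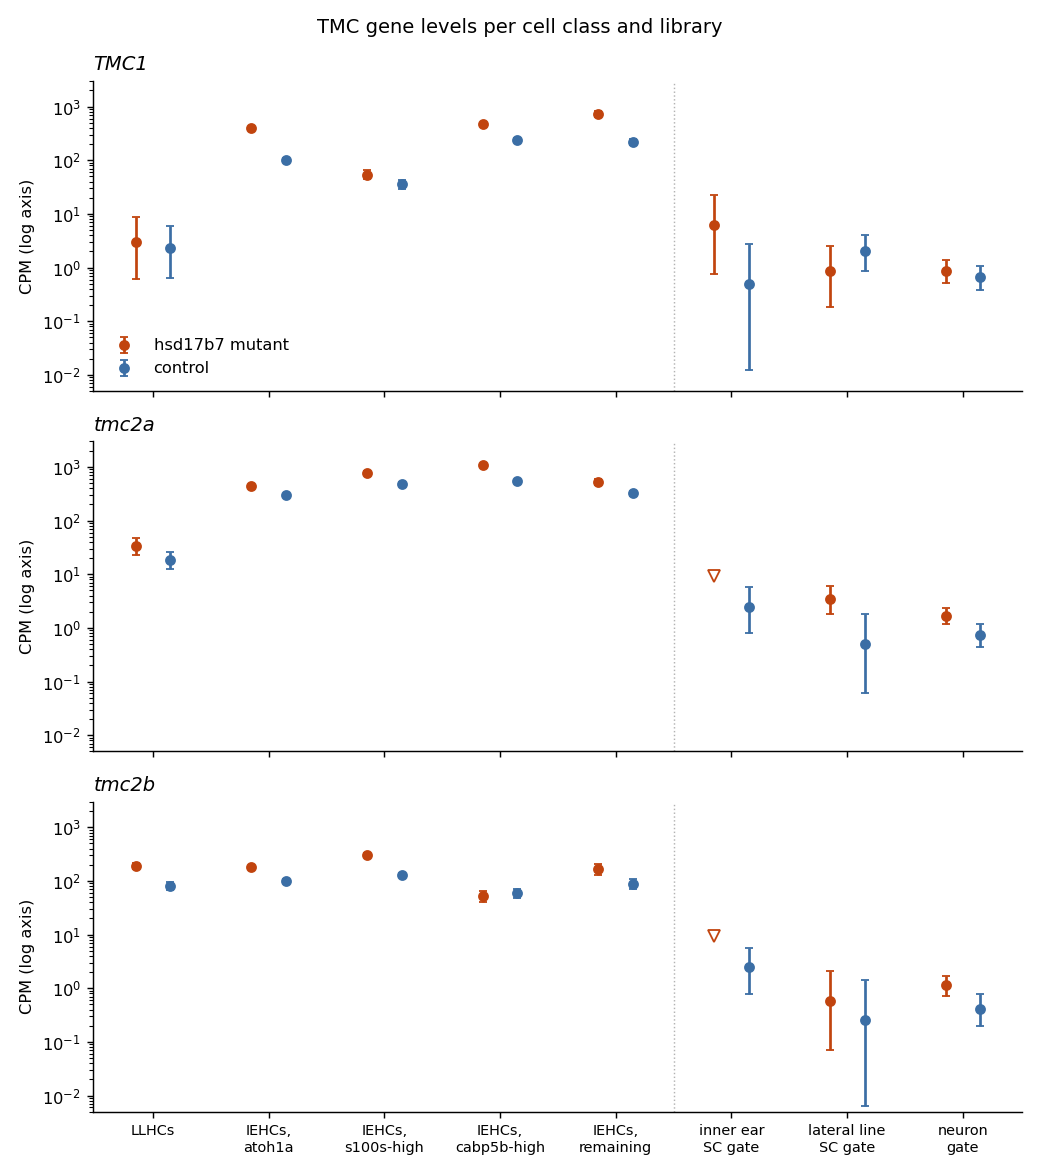
Level of *TMC1*, *tmc2a* and *tmc2b* in CPM (log axis) in the hair cell classes, left of the dotted line, and in gates for inner ear and lateral line supporting cells (SCs) and neurons. Points are the mutant (left of each pair) and control libraries with 95% Poisson intervals, and open triangles mark the level of 3 UMIs where 0 were counted. *tmc2b* stands at 192 and 79.5 CPM in mutant and control LLHCs, where *TMC1* stands at 2.96 and 2.32 CPM.

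The make-up of the TMC UMIs differed accordingly. Of the 231 TMC UMIs of mutant LLHCs, 84.0% were *tmc2b* (exact binomial interval 78.6 to 88.5), and of the 173 of control LLHCs 79.2% (72.4 to 85.0). In IEHCs *tmc2b* made up 16.2% of 10815 mutant and 16.8% of 7439 control TMC UMIs. *tmc2a* was the largest part in IEHCs, with 53.7% in the mutant and 64.3% in the control library, and *TMC1* made up 30.1% and 18.9%. A large part of the *tmc2a* in mutant LLHCs came from 2 cells, which held 7 and 17 of its 34 UMIs. These cells carried 202 and 200 UMIs of *s100s*, 2 and 3 of *myo6b* and 3 and 1 of *lhfpl5b*. Without cells of 100 or more *s100s* UMIs, a limit set after these values were seen, *tmc2a* made up 5% and *tmc2b* 93.5% of the mutant LLHC TMC UMIs.

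**Figure D2:**
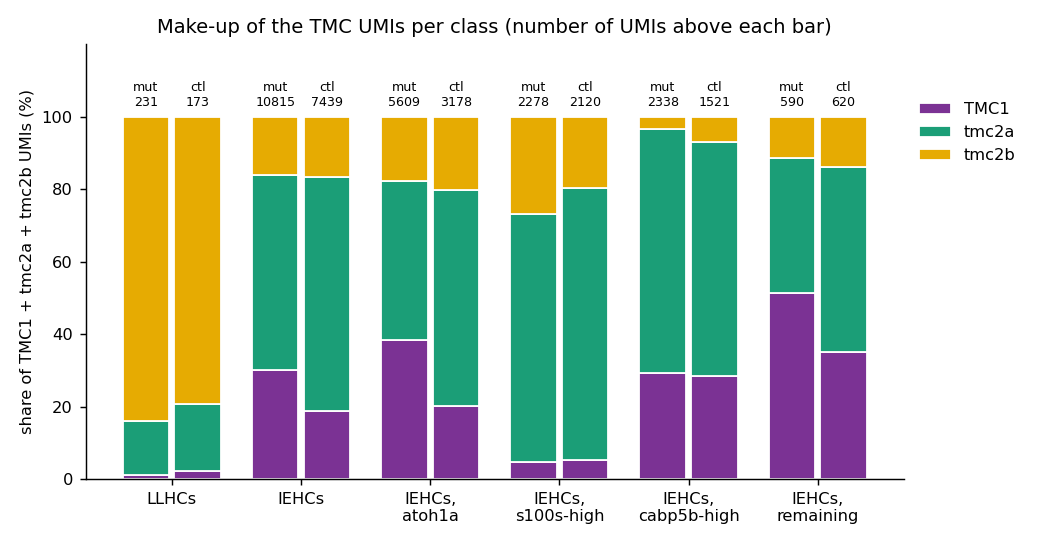
Share of *TMC1*, *tmc2a* and *tmc2b* in the sum of their UMIs (%), for each hair cell class, with the mutant library (mut) left of the control library (ctl) and the number of UMIs above each bar. *tmc2b* is the largest part in LLHCs (84.0% and 79.2%), and it is the smallest in *cabp5b*-high IEHCs (3.29% and 6.97%).

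Inside the inner ear the 3 genes had different orders over the subsets. *s100s* and *cabp5b* encode calcium-binding proteins. *TMC1* was highest in the remaining and *cabp5b*-high cells and lowest in the *s100s*-high cells. In mutant IEHCs it stood at 730 CPM in the remaining, 467 CPM in the *cabp5b*-high, 393 CPM in the *atoh1a* and 53.9 CPM in the *s100s*-high subset, with no overlap between neighbouring intervals. In control IEHCs the *cabp5b*-high (238 CPM) and remaining cells (221 CPM) overlapped, followed by the *atoh1a* (100.4 CPM) and *s100s*-high subsets (35.8 CPM). *tmc2b* had nearly the opposite order, highest in the *s100s*-high subset (308 CPM mutant, 129 CPM control) and lowest in the *cabp5b*-high subset (52.3 CPM mutant, 58.4 CPM control). The *atoh1a* and remaining cells lay between them with overlapping intervals (180 and 164 CPM mutant, 100.4 and 87.6 CPM control), as did LLHCs. *tmc2a* varied least, between 447 CPM in the *atoh1a* and 1068 CPM in the *cabp5b*-high subset of the mutant library, and between 298 and 542 CPM in the same subsets of the control library.

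The *s100s*-high subset was set against the *cabp5b*-high subset in a fit of edgeR over all 4 subsets in both libraries and 13092 genes, in which 4.93% of all genes were called, 2.58% lower and 2.35% higher. *TMC1* was lower in *s100s*-high cells (log2 difference -2.76, SE 0.33, adjusted p 0.0024), and *tmc2b* was higher (1.97, SE 0.31, adjusted p 0.0086). *tmc2a* did not pass (-0.15, SE 0.17, adjusted p 0.74). Within the libraries *TMC1* differed by -3.12 in the mutant and -2.73 in the control, and *tmc2b* by 2.56 in the mutant and 1.14 in the control. Without the library term neither call held (adjusted p 0.44 for *TMC1* and 0.36 for *tmc2b*).

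The same subdivision was present among cells with *atoh1a*. Of the mutant IEHCs with at least 2 *atoh1a* UMIs, those with high *s100s* had *TMC1* at 213 and *tmc2b* at 240.5 CPM, and those with high *cabp5b* had *TMC1* at 749 and *tmc2b* at 117 CPM. In the control library the values were 32.6 CPM of *TMC1* and 137 CPM of *tmc2b* with high *s100s*, and 212 CPM of *TMC1* and 65.2 CPM of *tmc2b* with high *cabp5b*. The order of the pair for *TMC1* and *tmc2b* was thus the one seen in cells with 0 or 1 *atoh1a* UMI. *tmc2a* was lower in cells with at least 2 *atoh1a* UMIs than in those with 0 or 1 in both kinds of cell, at 506 against 785 CPM in the *s100s*-high and 592 against 1068 CPM in the *cabp5b*-high mutant cells, and at 368 against 491 CPM and 368 against 542 CPM in the control cells.

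The *atoh1a* subset was therefore set against the mean of the *s100s*-high and *cabp5b*-high subsets in the same fit of edgeR, in which 3.16% of genes were called, 1.73% lower and 1.44% higher. *tmc2a* was lower in the *atoh1a* subset (log2 difference -0.98, SE 0.16, adjusted p 0.021), by -1.04 within the mutant and -0.79 within the control library. *TMC1* (0.68, SE 0.26, adjusted p 0.18) and *tmc2b* (0.26, SE 0.25, adjusted p 0.61) did not pass. Inner ear supporting cell markers moved with this contrast, at 1418 CPM in the mutant and 1343 CPM in the control *atoh1a* subset, against 339 and 443 CPM in *s100s*-high and 166 and 645 CPM in *cabp5b*-high cells, and their part in it was not tested. The 2 libraries were unlike for *TMC1*, with 1.31 within the mutant and 0.12 within the control. Without the library term *tmc2a* was not called (adjusted p 0.999), and *TMC1* was called without a filter on low counts (0.73, adjusted p 0.0037) and with stricter gates (1.07, adjusted p 0.025).

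By the number of *atoh1a* UMIs in a cell, *tmc2a* in mutant IEHCs had levels of 955 CPM at 0, 661 at 1, 574 at 2 to 3, 529 at 4 to 7 and 269 CPM at 8 or more. In control IEHCs it had 524, 395, 330, 274 and 271 CPM over the same bins. Both libraries thus went down with *atoh1a*, to nearly equal levels in the last bin. That bin held 132 mutant and 45 control IEHCs, and whether its cells are alike in the 2 libraries was not tested. *TMC1* in mutant IEHCs was highest in the middle, with 208, 454, 511, 481 and 218 CPM, while control IEHCs had 118, 143, 116, 92.3 and 73.2 CPM. *tmc2b* had no steady course, with 147 to 229 CPM in mutant and 90.8 to 118 CPM in control IEHCs. In LLHCs *tmc2b* was lowest with the most *atoh1a*, at 353 CPM with none and 25.7 CPM with 8 or more UMIs in the mutant library, and at 120 and 23.2 CPM in the control library. These bins held 25 and 17 mutant and 43 and 12 control cells. LLHCs with 8 or more *atoh1a* UMIs were also deeper than those with none, with medians of 18910 against 9093 UMIs in the mutant and 18467 against 9052 UMIs in the control library.

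**Figure D3:**
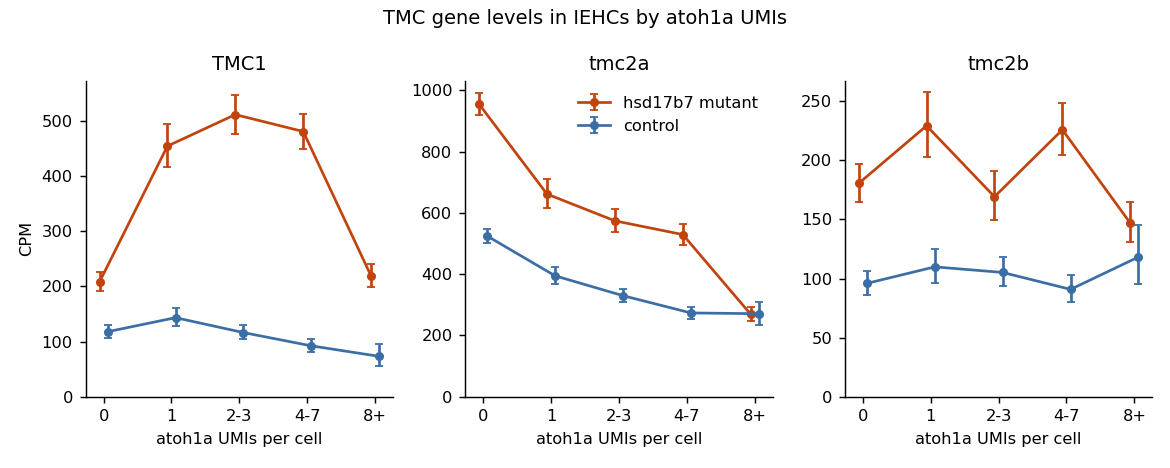
Level of *TMC1*, *tmc2a* and *tmc2b* in IEHCs (CPM) by the number of *atoh1a* UMIs in the cell, for the mutant and control libraries with 95% Poisson intervals. *tmc2a* runs from 955 CPM at 0 to 269 CPM at 8 or more *atoh1a* UMIs in the mutant and from 524 to 271 CPM in the control library.

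Median counts per IEHC were 8 UMIs of *tmc2a* in the mutant and 6 in the control library. For *tmc2b* they were 2 and 1, and for *TMC1* 0 in both. *tmc2a* had a UMI in 89.6% of mutant and 89.6% of control IEHCs, *tmc2b* in 66.0% and 66.1%, and *TMC1* in 40.3% and 37.9%. In LLHCs *tmc2b* had a UMI in 64.3% of mutant and 54.3% of control cells, *tmc2a* in 11.4% and 18.1%, and *TMC1* in 2.86% and 3.81%. Kept barcodes with at least 2 UMIs of the neuronal gene *elavl3* and no *myo6b* served as background, with *TMC1* in 0.537% of 3165 mutant and 0.521% of 2881 control barcodes and *tmc2a* and *tmc2b* in under 1% of either. Their median depth was 5450 and 6978 UMIs, against 13822 and 15389 in mutant and control IEHCs. With every cell thinned to 4000 UMIs, *TMC1* was found in 32.4% of mutant and 23.6% of control IEHCs, *tmc2a* in 76.1% and 69.2%, and *tmc2b* in 41.4% and 32.9%, against at most 0.559% for any of the 3 in the neuron gate. *TMC1* in thinned LLHCs rested on 1 cell in each library, of 65 mutant and 94 control cells, so its expression there was not detectable at this depth.

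**Figure D4:**
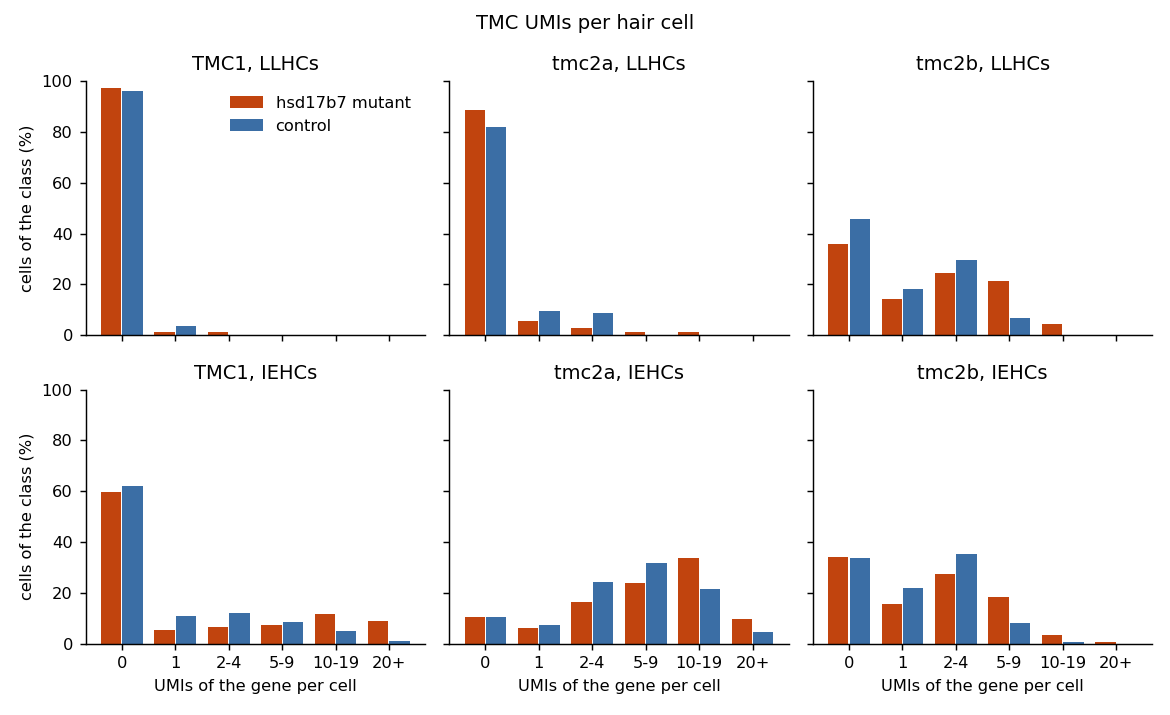
Share of LLHCs (top) and IEHCs (bottom) with 0, 1, 2 to 4, 5 to 9, 10 to 19 and 20 or more UMIs of each TMC gene (%), with the mutant bars left of the control bars. *TMC1* was not counted in 97.1% of mutant and 96.2% of control LLHCs, and 20.8% of mutant and 6.31% of control IEHCs held 10 or more of its UMIs.

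Most IEHCs held more than 1 TMC gene. All 3 were counted in 28.8% of mutant and 26.2% of control IEHCs, *tmc2a* with *tmc2b* alone in 31.9% and 35.5%, and *tmc2a* by itself in 22.2% and 20.2%. No TMC UMI was found in 2.83% of mutant and 3.79% of control IEHCs. In LLHCs *tmc2b* by itself was the most frequent pattern in the mutant library (55.7%) and as frequent as no TMC UMI in the control library (39.0% each). UMIs of all 3 were found in 0 of 70 mutant and 0 of 105 control LLHCs, which by a limit of 3 cells allows up to 4.29% and 2.86% of cells with such UMIs and does not limit the share of cells expressing all 3. Among *cabp5b*-high IEHCs 60.0% of mutant and 43.2% of control cells held *tmc2a* only, against 24.1% and 23.8% among *s100s*-high IEHCs, which were deeper (medians of 17254 and 16086 against 11610 and 14104 UMIs). Thinned to 4000 UMIs, the shares were 65.8% and 51.4% of mutant and control *cabp5b*-high cells, against 45.7% and 43.8% of *s100s*-high cells. Across IEHCs, the share of a cell's UMIs from *TMC1* went with that from *s100s* at a Spearman rho of -0.44 in 636 mutant and -0.45 in 713 control cells, and *tmc2b* went with *cabp5b* at -0.37 and -0.21. *TMC1* went with *cabp5b* at 0.081 and 0.18. Thinned to 4000 UMIs, rho was -0.40 in mutant and -0.32 in control cells for *TMC1* with *s100s*. For *tmc2b* with *cabp5b* it was then -0.28 and only -0.084. These are descriptions over cells that share a library, and the subsets had been cut by *s100s* and *cabp5b*.

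*TMC1* was spread unevenly over the cells. The tenth of IEHCs highest in it held 56.1% of its UMIs in the mutant and 63.9% in the control library, against 26.6% and 29.0% for *tmc2a*. Cells with 10 or more *TMC1* UMIs numbered 132 of 636 mutant and 45 of 713 control IEHCs. Of the 132 mutant cells, 88 were in the *atoh1a*, 26 in the *cabp5b*-high, 13 in the remaining and 5 in the *s100s*-high subset, and of the 45 control cells 15, 19, 7 and 4 were in the same subsets. Their median depth, 11764 and 13408 UMIs, was below that of IEHCs with no *TMC1* UMI (14475 and 15898).

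*tmc2a* was lower in IEHCs with 10 or more *TMC1* UMIs than in those with none. It stood at 468 CPM in mutant and 287 CPM in control cells, against 718 and 415 CPM. *tmc2b* was higher in such cells of the control library (149 against 92.9 CPM). In the mutant library its intervals overlapped (177 against 192 CPM). Other transduction genes did not all follow *TMC1*. *cib3* stood at 374 CPM in mutant and 201 CPM in control cells with 10 or more *TMC1* UMIs, against 2.25 and 1.75 CPM in IEHCs with none. *tmie* stood at 125 and 113 CPM in the *TMC1*-high cells, against 57.1 and 56.4 CPM. *pcdh15a* was lower in *TMC1*-high cells, at 237 CPM in mutant and 206 CPM in control cells, against 986 and 1667 CPM. *loxhd1a* was lower too, at 110.5 and 178 CPM against 381 and 322 CPM, and so was *lhfpl5a*, a gate gene, at 505 and 323 CPM against 594 and 444 CPM. *loxhd1b* was also lower, at 2.74 and 1.45 CPM (5 and 1 UMIs) against 47.7 and 34.3 CPM. *pcdh15b* was close to level, at 198 and 329 CPM in *TMC1*-high cells, against 195 and 330 CPM. *cdh23* (501 and 585 CPM against 562 and 557 CPM) and *cib2* (177 and 230 CPM against 247 and 193 CPM) were lower in *TMC1*-high cells of the mutant library. In the control library both stood higher in *TMC1*-high cells, but with overlapping Poisson intervals. *cabp1b*, *skor2* and *cabp2b* were chosen after their values were seen. *otofa* is on the hair cell marker list and was singled out from it after its values were seen. *otofa*, an otoferlin gene of the hair cell synapse, stood at 2012 and 1556 CPM in *TMC1*-high cells against 195 and 86.0 CPM. The otoferlin gene *otofb*, on the same list, was lower in *TMC1*-high cells, at 1900 and 1469 CPM against 2488 and 1604 CPM. *cabp1b* stood at 765 and 619 CPM against 24.2 and 21.9 CPM, and *skor2*, a transcriptional corepressor gene, at 110.5 and 58.0 CPM against 3.29 and 3.38 CPM. *cabp2b* went the other way, at 235 and 92.7 CPM against 1559 and 907 CPM. *myo6b*, a gate gene, was lower in *TMC1*-high cells of the mutant library (771 against 895 CPM) and level in the control library (891 against 891 CPM). Hair cell markers, a list that includes *otofa*, summed to 7054 and 5354 CPM in *TMC1*-high cells against 5943 and 4012 CPM. In both libraries *otofa* alone differed by more than this sum did. Inner ear supporting cell markers summed to 840 and 1107 CPM against 778 and 984 CPM, and neuron markers to 142 and 119 CPM against 242 and 171 CPM. Larger differences were seen for inner ear hair cell markers (*lhfpl5a*, *gata3* and *pvalb9*), at 6047 and 2686 CPM against 24953 and 10296 CPM, and lateral line hair cell markers, at 4364 and 1886 CPM against 15709 and 7993 CPM. The inner ear list summed to 59798.5 CPM in mutant and 23591 CPM in control *s100s*-high cells, and to at most 10597 and 2341 CPM in the other subsets. *s100s*-high cells made up 27.1% of mutant and 34.1% of control IEHCs with no *TMC1* UMI, and 3.79% and 8.89% of *TMC1*-high cells. Liver markers stood at 4476 and 661 CPM against 2467 and 1209 CPM. The part of these markers in the differences along *TMC1* was not tested.

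The comparison between genotypes asked whether the TMC genes differed in hair cells of *hsd17b7* mutants. In IEHCs all 3 stood higher in the mutant library, *TMC1* by the most. The log2 ratio of mutant to control CPM was 1.62 for *TMC1* (exact binomial interval 1.53 to 1.71), 0.68 for *tmc2a* (0.63 to 0.74) and 0.89 for *tmc2b* (0.78 to 1.00). *TMC1*, with a fold of 3.07, was the only 1 of the 3 past 2-fold in IEHCs, where 24.7% of the 14815 genes with at least 50 UMIs were past it, 5.40% higher and 19.3% lower in the mutant library. Their median was -0.13, and 99.0% of them had a lower ratio than *TMC1*, against 87.3% for *tmc2a* and 92.6% for *tmc2b*. The *mGFP* reporter stood at 0.76 and *hsd17b7* at 0.72. The share of IEHCs with a *TMC1* UMI was 40.3% in the mutant and 37.9% in the control library as counted, and 32.4% (exact binomial interval 28.8 to 36.2) and 23.6% (20.5 to 26.9) with every cell thinned to 4000 UMIs. As counted, the cells that had it held a mean of 12.7 UMIs in the mutant and 5.2 in the control library.

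The *TMC1* ratio was not the same in all subsets. It was 1.97 in the *atoh1a* subset (1.84 to 2.10), 1.72 in the remaining cells (1.47 to 1.98), 0.97 in the *cabp5b*-high subset (0.80 to 1.15) and 0.59 in the *s100s*-high subset (0.19 to 0.98). The *s100s*-high value rested on few cells, since 1 mutant cell held 24.3% of its *TMC1* UMIs, and it was -0.11 (-0.58 to 0.34) without the 2 mutant cells highest in it. The remaining cells were unlike between the libraries, with liver markers at 8047 CPM in mutant and 131 CPM in control cells. Lateral line hair cell markers stood at 24657 and 5267 CPM there. Their part in the ratios of the remaining cells was not tested. *tmc2a* lay between 0.58 and 0.98 in the 4 subsets. *tmc2b* was higher in the mutant in the *s100s*-high subset (1.26, 1.08 to 1.44), the *atoh1a* subset (0.84, 0.70 to 0.99) and the remaining cells (0.90, 0.42 to 1.38), and in *cabp5b*-high cells its interval included 0 (-0.16, -0.60 to 0.28). Of all genes with at least 50 UMIs, 4.87% were 2-fold or more higher in the mutant in the *atoh1a* subset (23.7% either way, 18.8% lower), 7.35% in the *s100s*-high subset (22% either way, 14.7% lower), 9.93% in the *cabp5b*-high subset (23.4% either way, 13.5% lower) and 9.68% in the remaining cells (22.2% either way, 12.5% lower). *TMC1* was past 2-fold in the *atoh1a* subset and the remaining cells, and *tmc2b* in the *s100s*-high subset. With the *atoh1a* subset cut at 1 UMI, an alternative chosen after the values were seen, the *TMC1* ratio was 0.51 in *cabp5b*-high and -0.029 in *s100s*-high cells. The subset limits are fixed UMI counts of genes that also differed between the libraries. Among IEHCs with no *TMC1* UMI, *atoh1a* stood at 234 CPM in mutant and 114 CPM in control cells. There *s100s* stood at 5888 and 3437 CPM, and *cabp5b* at 2560.5 and 828 CPM. The part of this in the subset ratios was not tested. Whether the ratios differ between subsets by more than libraries differ could not be tested with 1 library per genotype.

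In LLHCs *tmc2b* stood higher in the mutant library, with a log2 ratio of 1.27 (0.95 to 1.59) at a background of 27.5% of 6458 genes past 2-fold, 8.10% higher and 19.4% lower. Its median count per cell was 1.5 UMIs in mutant and 1.0 in control LLHCs, and without the 2 mutant cells highest in it the ratio was 1.07 (0.73 to 1.41). *tmc2a* had a ratio of 0.85 (0.11 to 1.60), which turned to -0.89 (-2.08 to 0.17) without 2 mutant cells. *TMC1*, with 3 and 4 UMIs, had an interval from -2.42 to 2.91. Blood markers summed to 0 CPM in mutant and 12881 CPM in control LLHCs, and with mitochondrial and globin UMIs out of the totals the ratio of *tmc2b* in LLHCs was 1.24 and that of *TMC1* in IEHCs 1.59. Lateral line hair cell markers summed to 62961 CPM in mutant and 27294 CPM in control LLHCs, and inner ear hair cell markers to 17838 CPM in mutant and 7510 CPM in control IEHCs. Liver markers summed to 2777 CPM in mutant and 1164 CPM in control IEHCs. The part of these marker differences in the ratios was not tested.

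**Figure D5:**
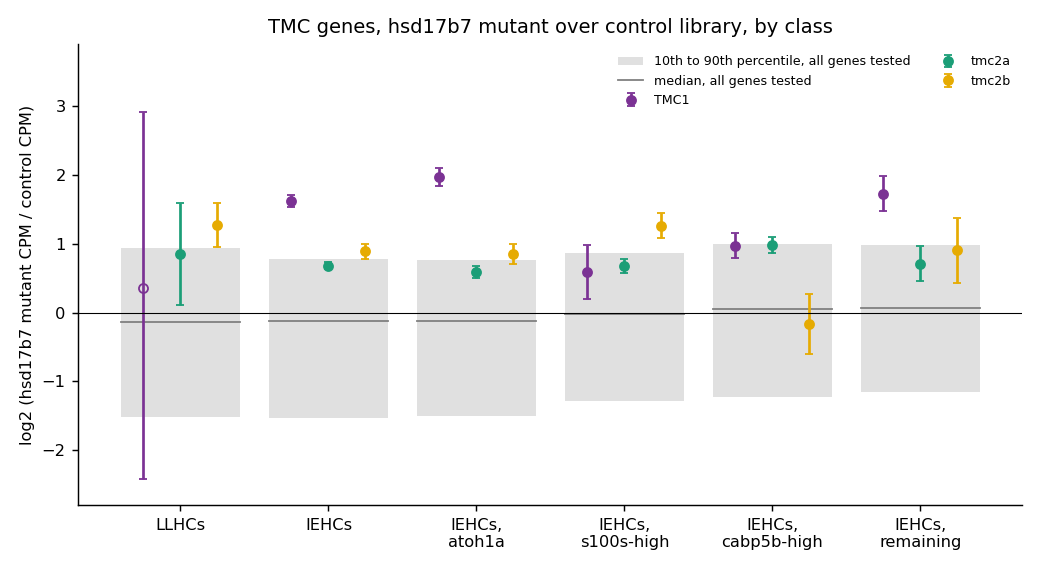
Log2 ratio of mutant to control CPM for *TMC1*, *tmc2a* and *tmc2b* in each hair cell class, with 95% binomial intervals (counting error only). An open point has under 50 UMIs in both libraries together, and grey bands run from the 10th to the 90th percentile of all genes with at least 50 UMIs. *TMC1* lies at 1.62 in IEHCs and at 1.97 in the *atoh1a* subset, above the band in both.

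Among 15 other transduction genes, the CIB gene *cib3* differed in the same direction as *TMC1* between LLHCs and IEHCs, between *s100s*-high and *cabp5b*-high cells and between the libraries in IEHCs. *tmie* and *ush1ga* had these signs too, but neither was called in the first 2 comparisons. Without the library term they stood at -0.41 and -0.85 in LLHCs, and at -0.29 and -0.13 in *s100s*-high cells. In that same fit *cib3* stood at -5.42 and *TMC1* at -6.45 in LLHCs, and at -3.48 and -2.83 in *s100s*-high cells. The mutant to control ratios of *tmie* and *ush1ga* in IEHCs were 0.23 and 0.95. *cib3* had 0 UMIs in mutant and 4 in control LLHCs, against 853 in mutant IEHCs (91.0 CPM) and 369 in control IEHCs (29.7 CPM). It was lower in LLHCs (log2 difference -5.03, SE 0.58, adjusted p 0.00016), lower in *s100s*-high than *cabp5b*-high cells (-3.36, SE 0.44, adjusted p 0.0040) and higher in the *atoh1a* subset (1.57, SE 0.31, adjusted p 0.037), each by edgeR. Without the library term none of these *cib3* calls held (adjusted p 0.17, 0.37 and 0.999). Its mutant to control ratio in IEHCs was 1.61 (1.44 to 1.79), and it was the only one of the 13 list genes with at least 50 UMIs past 2-fold there. The median ratio of these 13 genes was 0.16, with 8 above 0, and over all genes it was -0.13.

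Of the 13 list features that entered the LLHC and IEHC test, which left out the gate genes *lhfpl5a* and *lhfpl5b* and held *cdh23* in 2 annotated copies, 4 were lower in LLHCs, 0 were higher and 9 did not pass, where 7.37% of all genes were lower and 7.27% higher. Beside *cib3* these were *cib2* (-1.25, SE 0.20, adjusted p 0.0016), *loxhd1a*, a stereocilia protein gene (-1.95, SE 0.21, adjusted p 9.0e-05), and the Usher scaffold gene *ush1c* (-0.89, SE 0.19, adjusted p 0.0095). *tmie* (-0.38, adjusted p 0.30), *tomt* (0.024, adjusted p 0.98) and *pcdh15a* (0.27, adjusted p 0.46) did not pass. The median over the 13 was -0.12, against -0.055 over all genes. Without the library term no gene was called in this contrast, these 4 included. Between *s100s*-high and *cabp5b*-high cells, 3 of 13 were higher and 1 lower, where 2.35% of all genes were higher and 2.58% lower. The higher ones were *loxhd1b* (5.86, SE 0.39, adjusted p 0.00023), *pcdh15a* (1.18, SE 0.19, adjusted p 0.0096) and *loxhd1a* (0.94, SE 0.17, adjusted p 0.014). The list median was -0.17, against -0.0070 over all genes. Without the library term *loxhd1b* was still called (adjusted p 0.044), and *pcdh15a* (0.91) and *loxhd1a* (0.45) were not. In the *atoh1a* comparison *cib3* was the only one of 13 called, where 3.16% of all genes were called, and the list median was -0.055, against 0.026.

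Of 7 other TMC family genes, which are not known as transduction channels, 5 were among the features. *tmc5* was the only one of them at levels like those of the channel genes, with 171 CPM in mutant and 131 CPM in control LLHCs and 172 and 164 CPM in mutant and control IEHCs. It did not differ between LLHCs and IEHCs (-0.098, SE 0.20, adjusted p 0.82), and it was lower in *s100s*-high than in *cabp5b*-high cells (-0.87, SE 0.19, adjusted p 0.037), a call also lost without that term (adjusted p 0.55). *tmc4* was higher in LLHCs (3.52, SE 0.72, adjusted p 0.0067), but on 5 mutant and 17 control UMIs and not without the library term (adjusted p 0.19). It stood at 47.1 CPM in mutant and 41.6 CPM in control lateral line supporting gates, which held markers of both kinds of supporting cell. *tmc6a*, *tmc6b* and *tmc8* were each under 10 CPM in LLHCs and IEHCs of both libraries.

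For each TMC gene, the genes with the most similar profile were sought by Pearson's r of log2(CPM + 1) over the 5 hair cell classes in 2 libraries, among 9987 genes with at least 200 UMIs. The 10 profiles share libraries and class cuts, so r is a description. The closest to *TMC1* were *hpca*, a neuronal calcium sensor gene (r 0.98), *micu3a*, a regulator of mitochondrial calcium uptake (0.97), *ngfb*, a nerve growth factor gene (0.97), *CU462980.1* (0.97) and *si:ch73-147o17.1* (0.96). The closest to *tmc2a* were the calcium-binding protein gene *s100a1* (0.99), *pacsin1a*, a gene of membrane trafficking (0.99), *si:dkey-201i24.3* (0.98), the ceramide synthase gene *cers1* (0.98) and *creg2* (0.98). *s100a1* had 2932 CPM in mutant and 1018 CPM in control *cabp5b*-high cells and 2.96 and 1.74 CPM in LLHCs. The closest to *tmc2b* were less alike, namely the tubulin gene *tuba8l3* (0.90), the kinase gene *stk16* (0.90), the glycosylation gene *alg3* (0.90), the corepressor gene *tle2a* (0.90) and the chaperone gene *hspa8* (0.90). Among the 3 genes themselves, r was 0.85 between *TMC1* and *tmc2a*, -0.18 between *TMC1* and *tmc2b* and -0.018 between *tmc2a* and *tmc2b*. The profiles include LLHCs, where *TMC1* and *tmc2a* were both low. Across IEHCs alone, Spearman's rho of their shares of a cell's UMIs was -0.20 in mutant and -0.088 in control cells. For *TMC1* with *tmc2b* it was 0.12 and 0.15, and for *tmc2a* with *tmc2b* -0.13 and 0.092.

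Outside the hair cell gates the 3 genes were rare but not absent. The gates held 61.6% of the kept *TMC1* UMIs in the mutant and 70.7% in the control library, 76.3% and 80.7% of *tmc2a* and 76.3% and 80.2% of *tmc2b*. Most of the rest lay in other barcodes with 2 or more *myo6b* UMIs, namely 32.3% of *TMC1* in the mutant and 20.5% in the control library, and only 6.14% and 8.73% lay elsewhere. Of the 118 mutant barcodes outside the gates with 5 or more *TMC1* UMIs, 105 had at least 2 *myo6b* UMIs and 104 had fewer than 2 *lhfpl5a* UMIs, and of the 39 such control barcodes 35 and 37 did. Their median depth was 7666 UMIs in the mutant and 10720 in the control library. The inner ear supporting gate (33 mutant and 119 control barcodes) held 2 and 1 *TMC1*, 0 and 5 *tmc2a* and 0 and 5 *tmc2b* UMIs, where 3 UMIs, the limit used for a count of 0, would be 9.34 CPM in the mutant gate. The lateral line supporting gate (315 and 249 barcodes) held 3 and 8 *TMC1*, 12 and 2 *tmc2a* and 2 and 1 *tmc2b* UMIs. Its name rests on *irg1l*, because its markers were mixed. Lateral line supporting markers summed to 3782 CPM in its mutant and 1587 CPM in its control barcodes, and inner ear supporting markers to 6508 and 9318 CPM. In the inner ear supporting gate these lists summed to 872 and 246 CPM, and to 20571 and 12115 CPM. The intervals of both supporting gates overlapped those of the neuron gate, whose TMC levels were between 0.417 and 1.70 CPM, except for *tmc2b* in the control inner ear supporting gate (2.46 CPM, 0.798 to 5.74, against 0.417 CPM with an upper bound of 0.767).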

How the data were processed

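Per the labels, 1 mutant and 1 control library of sorted cells from 4 dpf larvae were sequenced with 10x 3′ chemistry. The authors deposited unnormalized UMI counts per gene and barcode, made with Cell Ranger 9.0.1 (mutant) and 7.1.0 (control), and the submitters' processing notes name GRCz11 and Seurat; the annotation release is not given in the sources used here. No column of other per-sample values was left out (0 columns).

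The members, gates and gene lists were chosen with earlier results of these data known. The members were selected by gene name, and no limit on their own values entered the gates. Barcodes under 500 genes or over 20% mitochondrial UMIs were dropped, and cells were assigned by the UMI limits given in the text. Supporting gates needed at least 2 *otogl* UMIs (inner ear) or 3 *irg1l* UMIs (lateral line), with at most 1 *myo6b* UMI. The lateral line supporting gate also needed at most 1 *otogl* UMI. Doublets were kept, and Scrublet in scanpy 1.11.5 marked 158 mutant and 225 control barcodes, which were left out in an alternative. LLHC and IEHC totals lay between 1013037 and 12405378 UMIs per class and library.

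UMIs were summed per class and library, given as CPM with exact Poisson intervals, and compared between libraries as log2 ratios with exact binomial intervals, with no p-value because each genotype has 1 library. Class contrasts used edgeR 4.0.16 (R 4.3.3) quasi-likelihood tests on summed counts with TMM scaling, a filter on low counts and the library as a term, with Benjamini-Hochberg adjustment and a threshold of 0.05. The library term pairs classes that come from the same sample of larvae. SEs of log2 differences were derived from the F statistics of these tests and were not estimated separately. The scripts were tested on simulated data.

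Named were the 3 TMC genes, 15 transduction and 7 other TMC family genes on fixed lists, the 5 genes closest to each member in profile, *hsd17b7*, the reporter and cell type markers; any other gene is said to be chosen after its values were seen. Alternatives were DESeq2 1.42.0, no filter on low counts, library totals in place of TMM, no library term, thinning to 4000 UMIs, stricter gates and subset limits, doublets left out, a stricter barcode filter, mitochondrial and globin genes left out, each library alone, and leaving out the cells highest in a member.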

Additional observations from a re-analysis of the deposited data

Results flagged for a closer look

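The 3 genes also had UMIs in barcodes that failed the filter on genes and mitochondrial UMIs, which no comparison used. These were 1797 mutant and 1885 control barcodes. *TMC1* stood at 12.6 CPM in the mutant barcodes (51 UMIs), against 1.07 CPM in the control barcodes (5 UMIs). *tmc2a* stood at 13.4 CPM (54 UMIs) against 3.65 CPM (17 UMIs), and *tmc2b* at 6.69 CPM (27 UMIs) against 1.93 CPM (9 UMIs). Each level was higher in the mutant than in the control library, which is what drew attention to it.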

How the results depend on the processing

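Replacing each setting in turn left 157 of 182 values of the mutant to control ratios within their counting intervals, and 38 of 46, 49 of 54 and 43 of 54 values of the lateral line, *s100s* and *atoh1a* contrasts on the same side of the threshold or within the limits set for a count. Contrast values within each library alone were counted among these where they lay within the 95% limits that the SE sets around the main value. Where no cause is named, the cause was not tested.

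All 5 calls of TMC genes in the contrasts were lost without the library as a block. Without this replicate block *TMC1* (-6.45, adjusted p 0.0847), *tmc2a* (-4.21, adjusted p 0.0999) and *tmc2b* (0.0034) in LLHCs against IEHCs, *TMC1* (-2.83, adjusted p 0.442) and *tmc2b* (2.15, adjusted p 0.358) in *s100s*-high against *cabp5b*-high cells, and *tmc2a* (-1.01, adjusted p 0.999) in the *atoh1a* contrast were not called, and the edgeR counts of called genes were 0, 7 and 0, against 2376, 646 and 414 with it (1594, 843 and 614 genes had an unadjusted p under 0.05). No paired analysis was possible between the genotypes because each has 1 library.

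The lateral line contrast called 1434 genes with DESeq2 and 1280 after thinning, where *tmc2b* was 0.21. The *s100s* contrast called 1306 without a filter, and the *atoh1a* contrast 839 with DESeq2, 1575 without a filter, 812 after thinning, 760 with a 4-fold gap between *s100s* and *cabp5b* and 248 with *atoh1a* at 1 UMI. There *TMC1* was 0.73 without a filter and 1.07 with stricter gates. Within the mutant library *TMC1* was -6.88 in the lateral line and 1.31 in the *atoh1a* contrast, within the control library it was 0.12 in the *atoh1a* contrast, and *tmc2b* was 1.14 in the *s100s* contrast. With library totals in place of TMM, higher and lower calls were 251 and 459 (308 and 338 with TMM) in the *s100s* and 390 and 222 (188 and 226) in the *atoh1a* contrast. Without a filter the *atoh1a* split was 1012 and 563.

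The LLHC ratio of *tmc2a* was -0.71 with stricter gates, -0.14 and -0.89 without the 1 and 2 mutant cells highest in it, and -0.89 without cells of 100 or more *s100s* UMIs (both chosen after seeing the data). After thinning the ratios were 0.91 for *tmc2b* in LLHCs and 0.55 for *tmc2a* and 0.71 for *tmc2b* in IEHCs. Stricter gates gave 1.46 for *TMC1* and 0.61 for *tmc2a* in IEHCs, and means of per-cell CPM gave 0.73 for *tmc2b*. In the *atoh1a* subset thinning gave 2.12 for *TMC1*, 0.30 for *tmc2a* and 0.65 for *tmc2b*, stricter gates 1.71 for *TMC1*, and per-cell means 0.49 for *tmc2a*. In *s100s*-high cells *TMC1* was -0.029 with *atoh1a* at 1 UMI and 0.19 and -0.11 without the highest 1 and 2 cells. In *cabp5b*-high cells that *atoh1a* limit gave 0.51 for *TMC1* and 0.79 for *tmc2a*, which was also 0.79 after thinning. In the remaining cells *TMC1* was 1.24 with stricter gates, 1.44 with *s100s* and *cabp5b* limits of 3 and 1.40 without the highest 2 cells, and *tmc2b* was 1.51 with *atoh1a* at 1 UMI.

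Of mutant LLHC TMC UMIs, *tmc2a* and *tmc2b* made up 24.0% and 74.7% after thinning, 6.17% and 92.0% with stricter gates and 5% and 93.5% without the *s100s* cells. Of mutant IEHC TMC UMIs, *TMC1*, *tmc2a* and *tmc2b* made up 34.5%, 50.8% and 14.7% after thinning and 23.7%, 57.5% and 18.7% with stricter gates, and stricter gates gave 15.3% *TMC1* and 67.1% *tmc2a* in control IEHCs. Cells with a UMI fell after thinning, as fewer UMIs are drawn: in LLHCs to 40.0% of mutant and 28.7% of control cells for *tmc2b* and 9.57% of control cells for *tmc2a*, and in IEHCs to 32.4% and 23.6% for *TMC1*, 76.1% and 69.2% for *tmc2a* and 41.4% and 32.9% for *tmc2b*. Stricter gates gave 34.1% of mutant IEHCs for *TMC1*, and 94.1% and 71.1% of control IEHCs for *tmc2a* and *tmc2b*.

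LLHCs are few, so *TMC1* and *tmc2a* there rest on 3 to 34 UMIs, and intervals cover counting error only.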

Other observations

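Barcodes with 2 or more *myo6b* UMIs that met no hair cell gate numbered 713 in the mutant and 916 in the control library. *TMC1* stood at 158 CPM in these mutant barcodes (95% Poisson interval 151 to 166), against 27.1 CPM in the control barcodes (24.6 to 29.9). *tmc2a* stood at 153 CPM (146 to 160) against 63.6 CPM (59.7 to 67.8), and *tmc2b* at 44.6 CPM (40.7 to 48.8) against 16.3 CPM (14.3 to 18.5). *TMC1* had a UMI in 23.6% of these mutant and 11.2% of these control barcodes. Their median depth was 9635 and 11724 UMIs, below that of the gated IEHCs.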
